A study of Sus scrofa with 9 samples.

Results

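The enzymes that break down amino acids in the liver were followed in 9 liver libraries of Wujin pigs, a breed of the plateau region of southwest China. A list of 44 genes was used, chosen by the reaction each enzyme carries out but with earlier results of these data known. Of these, 43 were found among the 25918 genes of the table. All 43 also passed the filter on low values, among 12584 genes tested. PRODH, listed for proline oxidation, was not found under that symbol and is not analysed here.

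Pigs entered the study at an age of 35 days, and after 5 days of prefeeding each received its diet for 30 days. The 3 diets shared a basal feed that itself held iron, with no iron added in the low-iron group, 100 mg/kg added as iron glycinate in the control group and 200 mg/kg in the high-iron group. Each group gave 3 libraries from 3 pigs, taken at random from the larger number fed, and a library is named here by its group and the number of its pig (low-iron 2, 3 and 7, control 4, 5 and 6, high-iron 2, 7 and 8). Pigs of both sexes were fed, but the labels do not give the sex of a pig. The comparisons ask how the liver transcriptome differed between the diets.

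The liver is the main organ of amino acid breakdown. Amino groups are first moved by transaminases, or released as ammonia for the urea cycle, and the carbon chains are then oxidised or passed on to glucose, ketone bodies and one-carbon units. Several of the steps need iron. HPD, HGD, HAAO and CDO1 are dioxygenases with a non-haem iron in the active site, and TDO2 and CBS carry haem. Many of the others, among them the transaminases, use pyridoxal phosphate. Hepatic transcription factors, glucocorticoids, glucagon and fasting are known to act on these genes.

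Levels were read as FPKM, the number of sequenced fragments of a gene after correction for its transcript length and for the size of the library. The sum of FPKM lay between 416922 and 456420 in a library, and between 16235 and 17817 genes were above 0. Read counts were not used here. Errors given as SE come from a fit over all 9 libraries, in which the groups share the spread of a gene. Hepatocyte markers were high in every library, with ALB between 46200 and 74100 FPKM. TFRC, the transferrin receptor whose mRNA is known to be stabilised in cells short of iron, stood at 87.9, 130 and 28.6 FPKM in the low-iron libraries, at 6.51, 17 and 7.51 in the control libraries and at 40.6, 15.9 and 18.5 in the high-iron libraries. The low-iron libraries were thus all above the control libraries for TFRC, and overlapped the high-iron libraries.

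The enzymes were abundant transcripts. The median of their mean levels over the 9 libraries was 97.2 FPKM, against 4.86 FPKM over all tested genes, and all 43 were above 0 in every library. HPD, which makes homogentisate in the breakdown of tyrosine, had the highest mean at 747 FPKM. It was followed by BHMT, which returns homocysteine to methionine with betaine, at 658 FPKM, MAT1A, which makes S-adenosylmethionine, at 466 FPKM, TDO2, which opens the ring of tryptophan, at 464 FPKM, and CDO1, which oxidises cysteine to its sulfinate, at 394 FPKM. Of the 43 genes, 21 had a mean of at least 100 FPKM. At the other end, BCAT2, the mitochondrial branched-chain aminotransferase, had a mean of 1.85 FPKM, and KYNU and GPT were the only other enzymes with a mean under 10 FPKM.

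The 9 libraries differed in these genes within groups as well as between them. The highest library was more than 2-fold above the lowest for 26 of the 43 enzymes and more than 4-fold for 4 of them (median over the 43, 2.16-fold). SDS, which deaminates serine, varied most, 11.6-fold, with 17.3, 15.1 and 151 FPKM in the low-iron, 37.8, 78.0 and 34.6 FPKM in the control and 24.1, 12.9 and 24.4 FPKM in the high-iron libraries. A single low-iron pig held the highest SDS level while the other two were among the lowest. The median SD within groups was 0.36 on the log2 scale for the enzymes, against 0.34 for all tested genes.

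**Figure D1:**
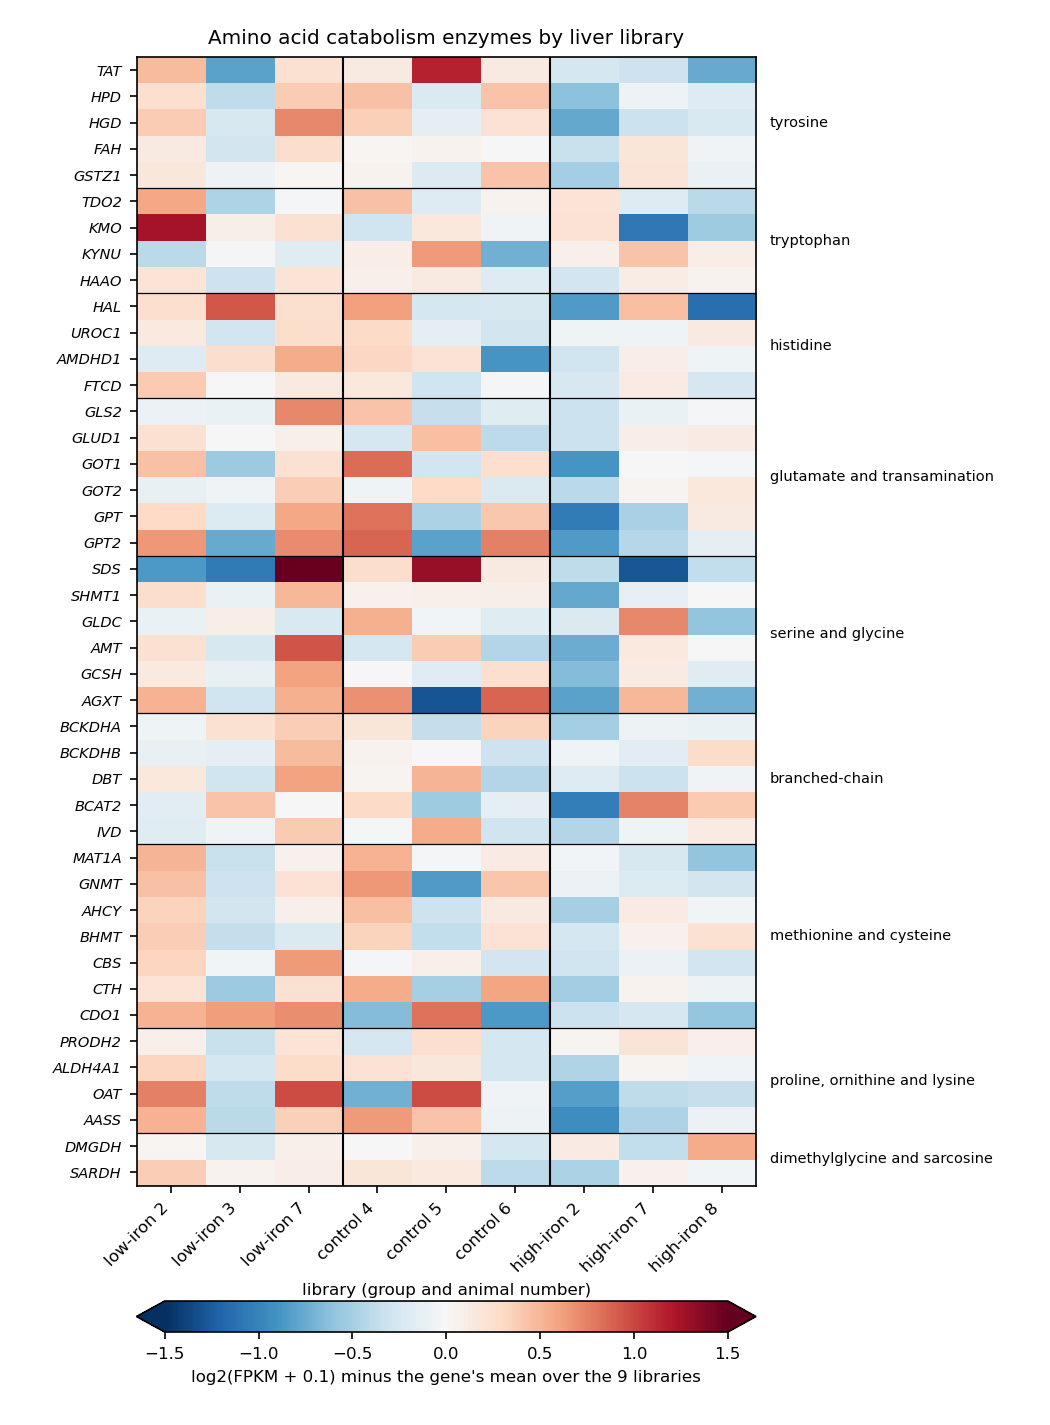
Level of each of the 43 enzyme genes (rows, grouped by the amino acid they act on) in the 9 libraries (columns), as log2(FPKM + 0.1) minus the mean of the gene over the libraries; red is above and blue below that mean. The column of high-iron 2 holds the lowest value of 20 genes, and that of low-iron 7 the highest value of 14.

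The level of the enzymes as a group was taken in each library as the median, over the 43 genes, of the deviation from the mean of the gene on the log2 scale. It was 0.24, -0.24 and 0.26 in low-iron 2, 3 and 7, 0.18, 0.00 and -0.05 in control 4, 5 and 6, and -0.39, -0.06 and -0.06 in high-iron 2, 7 and 8. High-iron 2 was the lowest library and also held the lowest value of 20 of the 43 genes. The same median over all tested genes lay between -0.14 and 0.12, with 0.12 and 0.11 in high-iron 7 and 8. The enzymes of low-iron 3 and of all 3 high-iron libraries thus stood below the middle of their libraries, and those of low-iron 2 and 7 and of control 4 and 5 above it.

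Some of these genes lie close to others. HAL and AMDHD1, which carry out the first and the third step of histidine breakdown, lie on chromosome 5 of Sscrofa11.1 with their 3′ ends facing and 4397 bases between them, and DMGDH and BHMT lie 43903 bases apart on chromosome 2. The spans of 10 enzyme genes share bases with another annotated gene, in each case on the opposite strand. Among them, HAL shares 18431 bases and KMO 4112 bases with a long non-coding RNA gene, GNMT shares 1367 bases with PEX6, and DMGDH shares 559 bases with BHMT2. Whether the counting used strand is not given in the sources used here, so reads of such partners could not be told apart.

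Promoters are shown for 4 enzymes picked from these same data, CDO1 and CBS (high-iron against low-iron) and TAT and AASS (high-iron against control). Each had an unadjusted p under 0.05 by limma and no overlap of the groups in that comparison, but none had an adjusted p under 0.05. CDO1 (gene ID 100312964) lies on chromosome 2 from 119927768 to 119940690, CBS (gene ID 110256498) on chromosome 13 from 206205942 to 206231363 and TAT (gene ID 100511756) on chromosome 6 from 14571311 to 14583203, all on the minus strand. AASS (gene ID 100513962) lies on the plus strand of chromosome 18 from 24938366 to 25039197. The 250 bases before each annotated start (Sscrofa11.1, chr2:119940691-119940940, chr13:206231364-206231613, chr6:14583204-14583453 and chr18:24938116-24938365) are written 5′ to 3′ on the strand of the gene. Capitals mark matches to the TATA box (TATAAA), the CCAAT box (the letters of its name), the GC box (GGGCGG) and the half-site of the hepatic factor HNF1 (GTTAAT), each searched on both strands.
CDO1: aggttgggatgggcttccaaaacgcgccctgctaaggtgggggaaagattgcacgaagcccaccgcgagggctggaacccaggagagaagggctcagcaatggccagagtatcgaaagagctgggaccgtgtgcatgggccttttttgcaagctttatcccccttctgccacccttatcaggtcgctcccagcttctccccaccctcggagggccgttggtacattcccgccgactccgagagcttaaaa
CBS: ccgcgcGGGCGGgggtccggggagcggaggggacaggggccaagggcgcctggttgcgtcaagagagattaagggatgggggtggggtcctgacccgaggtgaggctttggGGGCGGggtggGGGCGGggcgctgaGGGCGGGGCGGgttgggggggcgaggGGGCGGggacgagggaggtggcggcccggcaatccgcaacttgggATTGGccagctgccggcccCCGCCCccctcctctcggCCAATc
TAT: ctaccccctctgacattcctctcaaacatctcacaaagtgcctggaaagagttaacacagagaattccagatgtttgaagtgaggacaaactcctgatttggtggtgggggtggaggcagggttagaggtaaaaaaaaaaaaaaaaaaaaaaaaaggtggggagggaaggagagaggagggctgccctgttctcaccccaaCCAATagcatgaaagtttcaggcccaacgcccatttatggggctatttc
AASS: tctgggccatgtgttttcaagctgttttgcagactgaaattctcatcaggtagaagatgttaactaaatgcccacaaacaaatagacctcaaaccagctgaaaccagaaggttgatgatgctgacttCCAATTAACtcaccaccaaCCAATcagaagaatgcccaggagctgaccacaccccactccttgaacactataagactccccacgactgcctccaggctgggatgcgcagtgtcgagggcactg
The window of CDO1 held none of these letters. That of CBS held 7 GC box matches, of which 2 overlap each other, and 2 CCAAT matches, with 76.0% G and C. In AASS a CCAAT match overlaps the half-site match, and TAT held 1 CCAAT match. A GC box was present in 26 of the 43 enzyme windows (60.5%), against 44.5% of 20650 windows of the same length. CCAAT was in 37.2% of the enzyme windows and 32% of all, TATAAA in 9.3% and 10.4%, and the half-site in 6.98% and 6.24%. These matches describe the letters and do not show that a factor bound there.

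Between the low-iron and the control livers no enzyme was apart by more than the spread of the pigs, and CDO1 came closest. Over the 43 enzymes, 27 had a higher and 16 a lower mean log2 level in the low-iron than in the control group, where 37.3% of all tested genes were lower. The median log2 fold change of the enzymes was 0.07 and that of all tested genes 0.08. CDO1 was the only enzyme with an unadjusted p under 0.05 (limma on log2(FPKM + 0.1), moderated over all genes), which 2.92% of all tested genes reached as higher and 0.763% as lower. No enzyme passed the study's call, a fold change of at least 2 with an unadjusted p under 0.05, which 0.882% of genes passed. By limma none reached an adjusted p under 0.05, nor did any other gene (0% of those tested). The low-iron and control libraries overlapped for every enzyme, while they were apart for 6.1% of all genes as higher and for 2.24% as lower.

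CDO1 commits cysteine to taurine and sulfate. Its level was 516, 555 and 584 FPKM in the low-iron libraries and 228, 632 and 198 FPKM in the control libraries. The low-iron pigs lay close together, and control 5 lay above them all while the other control pigs were far below. In log2 terms the difference was 0.85 ± 0.37 (SE, n = 3 libraries per group, limma p = 0.0427, adjusted p = 0.9998, exact permutation p = 0.4). Leaving out 1 library at a time moved it between 0.54 and 1.38, and of these fits that without control 5 alone kept CDO1 under an unadjusted p of 0.05, with the study's call. It was also not under 0.05 with median-of-ratios scaling, quantile normalization, no filter or a fit of the 2 groups alone.

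CBS, the haem enzyme that joins homocysteine and serine, followed at 104, 80.9 and 130 FPKM in the low-iron libraries against 81.9, 87.8 and 68.1 FPKM in the control libraries. This gave a log2 fold change of 0.39 ± 0.20 (SE, limma p = 0.0873, exact permutation p = 0.3). KMO, which hydroxylates kynurenine, was at 345, 154 and 170 FPKM against 118, 162 and 140 FPKM, a log2 fold change of 0.58 ± 0.36 (SE, limma p = 0.139, exact permutation p = 0.2). For both genes the low-iron and control libraries overlapped. AMT, the aminomethyltransferase of the glycine cleavage system, was at 16.1, 11.6 and 26.6 FPKM against 11.4, 18.0 and 10.1 FPKM, a log2 fold change of 0.42 ± 0.35 (SE, limma p = 0.251, exact permutation p = 0.4). TAT, the transaminase that opens tyrosine breakdown, was at 418, 173 and 352 FPKM against 332, 672 and 331 FPKM, a log2 fold change of -0.51 ± 0.37 (SE, limma p = 0.193, exact permutation p = 0.6).

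By amino acid, the histidine enzymes were all 4 above the control level, with a median log2 fold change of 0.28. The tyrosine, tryptophan and methionine enzymes were on both sides of 0, with medians of -0.05, -0.02 and -0.05. The direction of the median over all 43 turned under other scalings of the libraries, to -0.01 with 19 genes higher after median-of-ratios scaling and to -0.01 with 20 genes higher after quantile normalization. It ran from -0.04 without low-iron 7 to 0.21 without low-iron 3.

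In the high-iron livers most of the enzymes were below the control level. Of the 43 enzymes, 35 had a lower mean log2 level in the high-iron group, where 35% of all tested genes were lower. The median log2 fold change was -0.23, against 0.10 over all tested genes. AASS and TAT had an unadjusted p under 0.05 and were lower, a side that 0.811% of all genes reached, and no enzyme did so as higher (4.78% of all genes). No enzyme passed the study's call (1.57% of all genes) or, by limma, an adjusted p under 0.05, which 1 gene of all tested did (0.00795%). For 6 of the 43 enzymes (AASS, TAT, HGD, MAT1A, SDS and SHMT1) every high-iron library was below every control library, which held for 1.76% of all genes, and for none was it above (9.14% of all genes).

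AASS, the bifunctional enzyme that starts the breakdown of lysine, was at 31.9, 44.0 and 57.1 FPKM in the high-iron libraries and at 94.2, 82.0 and 57.5 FPKM in the control libraries. The groups did not overlap, by a narrow margin between high-iron 8 and control 6. The log2 fold change was -0.82 ± 0.30 (SE, n = 3 libraries per group, limma p = 0.0201, adjusted p = 0.892, exact permutation p = 0.1). TAT was at 252, 243 and 179 FPKM against 332, 672 and 331 FPKM. Control 5 held by far the highest level, and the other control pigs were also above all high-iron pigs. The fitted log2 fold change was -0.91 ± 0.37 (SE, limma p = 0.0312, adjusted p = 0.892, exact permutation p = 0.1). The exact permutation tests given beside limma are two-sided, and 0.1 is the smallest p that 3 against 3 libraries allow.

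None of the enzymes after TAT on the same route had an unadjusted p under 0.05. HGD, which opens the ring of homogentisate, was at 88.0, 120 and 128 FPKM in the high-iron libraries and at 192, 136 and 174 FPKM in the control libraries, without overlap. The resulting log2 fold change was -0.58 ± 0.27 (SE, limma p = 0.0516, exact permutation p = 0.1). HPD, between TAT and HGD, was at 474, 687 and 635 FPKM against 981, 623 and 971 FPKM, with overlap through control 5. Its log2 fold change was -0.51 ± 0.28 (SE, limma p = 0.1001, exact permutation p = 0.3). All 5 tyrosine enzymes had values below 0, with a median of -0.51, but for GSTZ1 and FAH at the end of the route the log2 fold changes were -0.24 and -0.10.

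MAT1A was at 441, 383 and 301 FPKM in the high-iron libraries and at 650, 448 and 493 FPKM in the control libraries, a log2 fold change of -0.50 ± 0.26 (SE, limma p = 0.0852, exact permutation p = 0.1). All 7 enzymes of methionine and cysteine had values below 0, with a median of -0.23. CDO1 and CBS were near the control level, at -0.15 and -0.15. BHMT, the other route from homocysteine, was at 537, 672 and 757 FPKM against 814, 498 and 748 FPKM, a log2 fold change of -0.05 ± 0.27 (SE, limma p = 0.859, exact permutation p = 0.9).

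Apart from TAT, none of the transaminases among the 43 had an unadjusted p under 0.05. GPT, the cytosolic alanine transaminase, was at 3.68, 5.48 and 8.49 FPKM in the high-iron libraries and at 13.7, 5.54 and 10.3 FPKM in the control libraries, a log2 fold change of -0.72 ± 0.38 (SE, limma p = 0.0834, exact permutation p = 0.2). GPT2 and GOT1 had log2 fold changes of -0.74 and -0.57. GOT2, the mitochondrial aspartate transaminase, stood at -0.07, BCAT2 at 0.16 and GLUD1, glutamate dehydrogenase, at 0.03. All 6 enzymes of serine and glycine were below 0, with a median of -0.32, and SHMT1, serine hydroxymethyltransferase, was at 144, 225 and 243 FPKM against 255, 258 and 259 FPKM.

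The enzymes of tryptophan, histidine and branched-chain amino acids were closer to 0, with medians of -0.14, -0.02 and -0.20. TDO2 was at 522, 394 and 340 FPKM in the high-iron libraries and at 612, 396 and 467 FPKM in the control libraries, a log2 fold change of -0.23 ± 0.29 (SE, limma p = 0.451, exact permutation p = 0.4). HAAO, which opens the ring of hydroxyanthranilate, was at 134, 177 and 169 FPKM against 173, 179 and 143 FPKM, a log2 fold change of -0.05 ± 0.21 (SE, limma p = 0.823, exact permutation p = 0.6). The 8 enzymes above 0 were each within 1 SE of 0, and KYNU was the highest of them at 0.20.

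Leaving out single pigs changed these values. Without control 5, 9 enzymes had an unadjusted p under 0.05, AASS and TAT not among them, and AGXT, GPT and GPT2 passed the study's call. The shares of all tested genes past these limits are not given for fits without a pig, so their counts do not show a larger difference. Without high-iron 2 the median log2 fold change of the 43 enzymes was -0.05, and TAT alone was under 0.05. After median-of-ratios scaling the median was -0.36 with 39 of 43 genes below 0, the median of all tested genes then standing at -0.03.

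**Figure D2:**
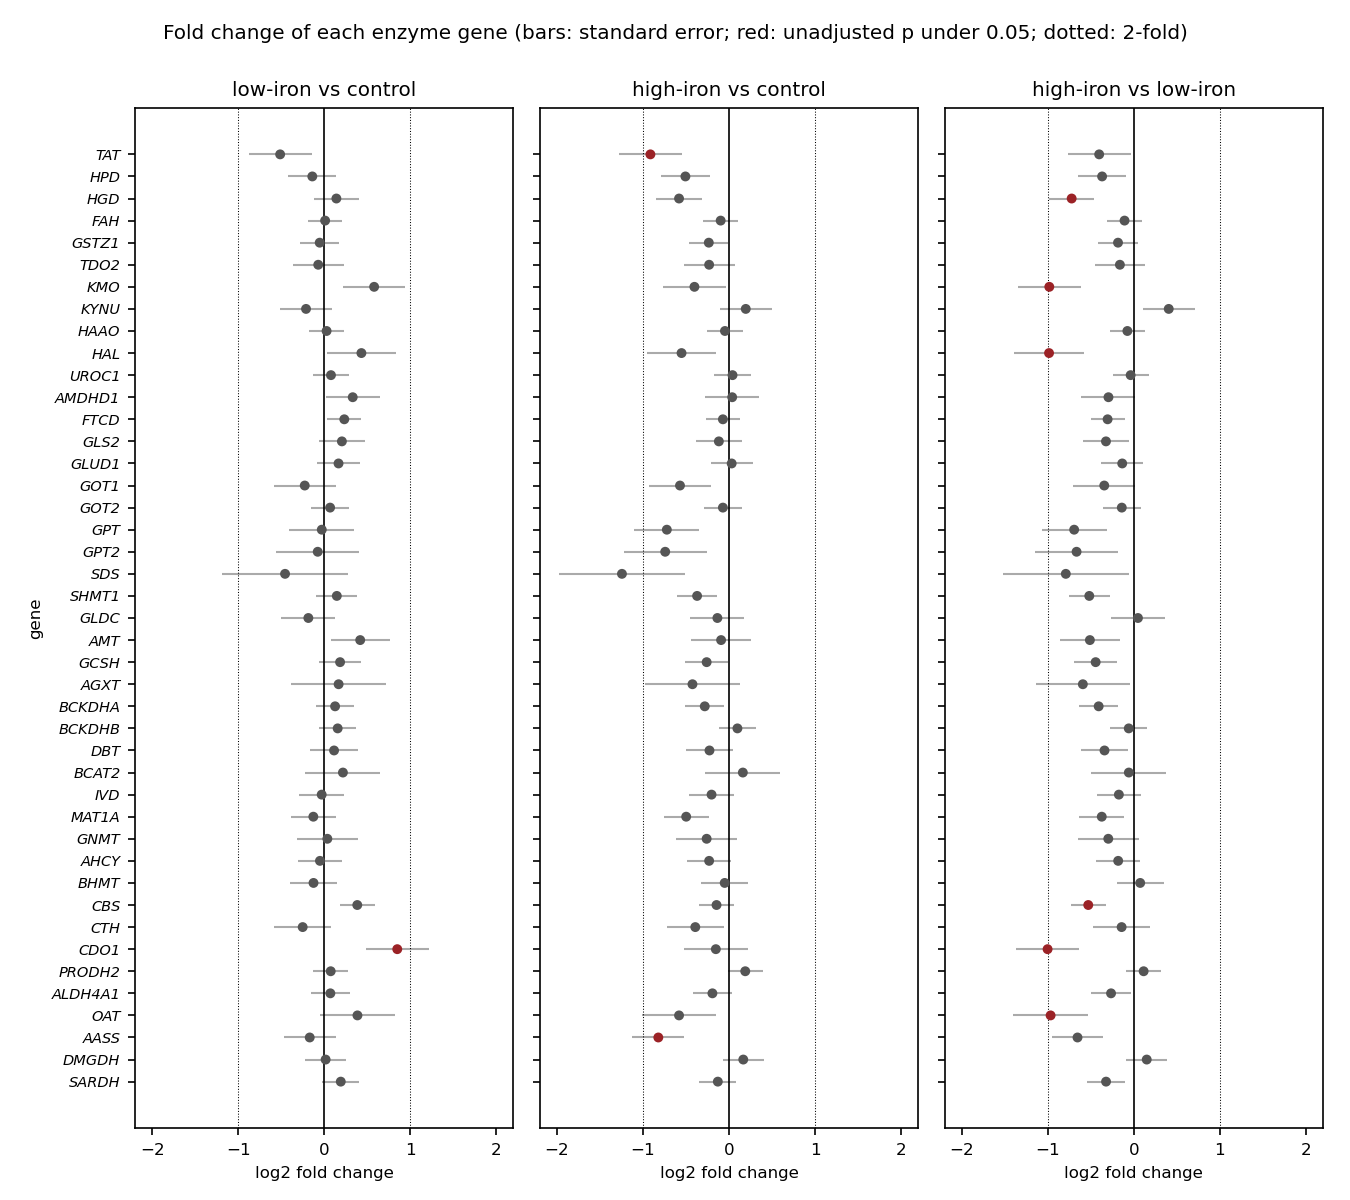
Log2 fold change (x axis) of each of the 43 enzyme genes (y axis) in the 3 comparisons, with its standard error from limma; points in red have an unadjusted p under 0.05 and dotted lines mark 2-fold. In high-iron against low-iron 38 points lie left of 0 and 6 are red, while in low-iron against control 16 lie left of 0 and 1 is red.

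High-iron and low-iron livers were compared directly. In the high-iron group 38 of the 43 enzymes had a lower mean log2 level than in the low-iron group, where 46.4% of all tested genes were lower. The median log2 fold change was -0.32, against 0.03 over all tested genes. HGD, CDO1, KMO, CBS, HAL and OAT had an unadjusted p under 0.05, all lower in the high-iron group (3.12% of all genes), and none was higher (4.03% of all genes). CDO1 was the only enzyme that passed the study's call, as 1.54% of all genes did. By limma no gene of those tested had an adjusted p under 0.05 (0%), and for these 6 enzymes the adjusted p lay between 0.643 and 0.697. High-iron and low-iron libraries did not overlap for CDO1, CBS and BCKDHA as lower (5.13% of all genes) and for KYNU as higher (8.11% of all genes).

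CDO1 was at 287, 302 and 240 FPKM in the high-iron libraries, close together and far below the 516, 555 and 584 FPKM of the low-iron libraries. This gave a log2 fold change of -1.0 ± 0.37 (SE, n = 3 libraries per group, limma p = 0.0207, adjusted p = 0.643, exact permutation p = 0.1). The SE takes in the wide spread of the control libraries, which the fit shares between groups. The value stood between -1.07 and -0.90 when single libraries were left out, and CDO1 was short of 2-fold after rescaling to TPM, after quantile normalization, without low-iron 3 and in the fit with a replicate block, and its unadjusted p was not under 0.05 without high-iron 8 or without low-iron 7.

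CBS was at 67.6, 78.5 and 68.3 FPKM in the high-iron libraries against 104, 80.9 and 130 FPKM in the low-iron libraries, a log2 fold change of -0.53 ± 0.20 (SE, limma p = 0.0258, adjusted p = 0.656, exact permutation p = 0.1). The groups did not overlap, though low-iron 3 lay just above high-iron 7. CTH, which cleaves cystathionine to cysteine between CBS and CDO1, had a log2 fold change of -0.14 ± 0.33 (SE, limma p = 0.676, exact permutation p = 0.6). BHMT was at 0.07 ± 0.27 (SE, limma p = 0.791, exact permutation p = 0.9).

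**Figure D3:**
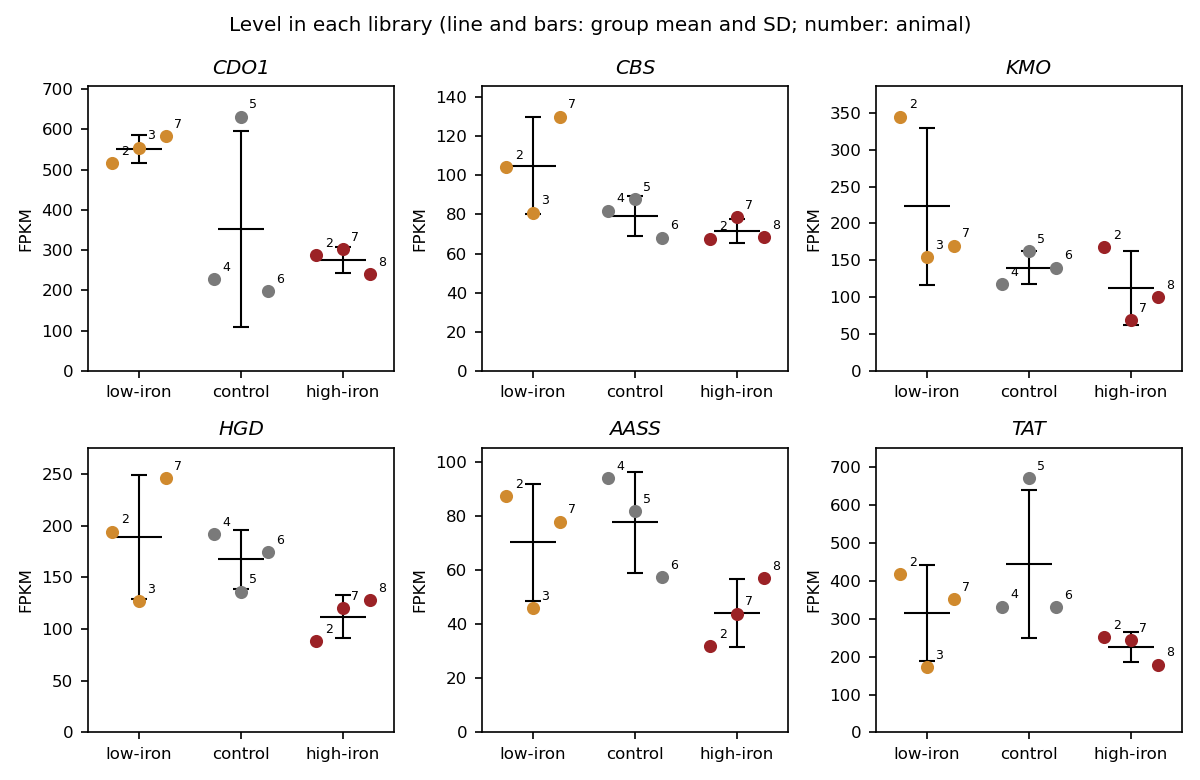
FPKM (y axis, from 0) of CDO1, CBS, KMO, HGD, AASS and TAT in each library (points, numbered by pig), with the mean and SD of each group of 3. For CDO1 the low-iron points lie between 516 and 584 and the high-iron points between 240 and 302, with control 5 at 632.

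HGD was at 88.0, 120 and 128 FPKM in the high-iron libraries against 194, 127 and 246 FPKM in the low-iron libraries, with high-iron 8 just above low-iron 3. The fitted log2 fold change was -0.72 ± 0.27 (SE, limma p = 0.0203, adjusted p = 0.643, exact permutation p = 0.2). KMO was at 168, 69.1 and 100 FPKM against 345, 154 and 170 FPKM, where low-iron 2 was the highest and high-iron 2 reached the other low-iron pigs. The resulting log2 fold change was -0.98 ± 0.36 (SE, limma p = 0.0211, adjusted p = 0.648, exact permutation p = 0.2). KYNU, which cleaves the product of KMO, was at 8.52, 10.9 and 8.63 FPKM against 6.06, 7.91 and 7.12 FPKM, a log2 fold change of 0.41 ± 0.30 (SE, limma p = 0.209, exact permutation p = 0.1). The 2 neighbouring steps of kynurenine breakdown thus had values of opposite sign, and the difference between them was not tested.

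HAL, the ammonia-lyase that starts histidine breakdown, was at 9.99, 24.7 and 8.20 FPKM in the high-iron libraries against 21.6, 34.5 and 21.4 FPKM in the low-iron libraries, with overlap through high-iron 7. Its log2 fold change was -0.99 ± 0.40 (SE, limma p = 0.0328, adjusted p = 0.667, exact permutation p = 0.3), while that of its neighbour AMDHD1 was -0.30 ± 0.31 (SE, limma p = 0.37, exact permutation p = 0.3). OAT, ornithine aminotransferase, was at 22.2, 30.4 and 31.1 FPKM against 66.6, 30.3 and 78.1 FPKM, where low-iron 3 lay among the high-iron pigs. This gave a log2 fold change of -0.97 ± 0.43 (SE, limma p = 0.0487, adjusted p = 0.697, exact permutation p = 0.3). BCKDHA, a subunit of the branched-chain keto acid dehydrogenase, was at 51.9, 69.9 and 68.9 FPKM against 70.7, 86.6 and 95.7 FPKM (limma p = 0.0975, exact permutation p = 0.1).

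Grouped by cofactor, the 4 enzymes with a non-haem iron (HPD, HGD, HAAO and CDO1) all had values below 0 in high-iron against low-iron, with a median of -0.55, and 2 of them had an unadjusted p under 0.05. In this comparison 38 of all 43 enzymes and 46.4% of all tested genes were below 0, so the sign was not particular to iron enzymes. An unadjusted p under 0.05 was reached by 3.12% of all genes as lower. HPD was at 853, 554 and 944 FPKM in the low-iron libraries, a log2 fold change of -0.37, and HAAO at 189, 132 and 188 FPKM, a log2 fold change of -0.08. The haem enzymes TDO2 and CBS stood at -0.16 and -0.53. The 14 pyridoxal phosphate enzymes, among which CBS is counted again, had a median of -0.46 with 12 below 0. CBS and OAT among them had an unadjusted p under 0.05. The 5 flavin enzymes had a median of -0.17 with 3 below 0, and KMO among them had an unadjusted p under 0.05. The medians of the non-haem iron and pyridoxal phosphate enzymes were -0.33 and -0.41 in high-iron against control and 0.09 and -0.05 in low-iron against control.

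The count in high-iron against low-iron moved with single pigs. It was 11 enzymes without low-iron 3, and 2 without low-iron 2, low-iron 7 or high-iron 2, and the median log2 fold change ran from -0.45 to -0.19. The 3 comparisons share libraries in pairs, so their values are not independent of each other.

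A list of other enzymes of amino acid metabolism held 58 tested genes. Of these 17 (29.3%) had a value below 0 in low-iron against control, 35 (60.3%) in high-iron against control and 46 (79.3%) in high-iron against low-iron, where 37.3%, 35% and 46.4% of all tested genes did. Their median log2 fold changes were 0.07, -0.06 and -0.19. None had an unadjusted p under 0.05 in low-iron against control, where AFMID (kynurenine formamidase), TDH (threonine dehydrogenase) and KYAT1 (a kynurenine aminotransferase) came closest, at log2 fold changes of 0.49, 0.52 and 0.60 (limma adjusted p = 0.9998 for each). Among those with an unadjusted p under 0.05, ACMSD, DHTKD1 and PYCR1, which makes proline, were lower and HYKK was higher in high-iron against control. In high-iron against low-iron DHTKD1 and SDSL were lower and DDO, the oxidase of D-aspartate, and HYKK higher.

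ACMSD, which diverts tryptophan breakdown away from NAD synthesis, was the only one of the 58 that passed the study's call. It did so in high-iron against control, where 1.57% of all tested genes passed, so 1 of 58 is near that share. ACMSD was at 2.36, 12.1 and 5.38 FPKM in the high-iron libraries and at 17.9, 14.1 and 13.9 FPKM in the control libraries, without overlap. The fitted log2 fold change was -1.48 ± 0.55 (SE, limma p = 0.0211, adjusted p = 0.892, exact permutation p = 0.1). DHTKD1, on the lysine route after AASS, had a log2 fold change of -0.52 ± 0.22 in high-iron against control and of -0.52 ± 0.22 against low-iron (SE, limma adjusted p = 0.892 and 0.680). HYKK, the hydroxylysine kinase, was at 2.36, 2.66 and 2.77 FPKM in the high-iron libraries, above all others, which lay between 1.49 and 1.91 FPKM. SDSL, a paralogue of SDS, had a log2 fold change of -0.67 ± 0.26 in high-iron against low-iron (SE, limma p = 0.0278, adjusted p = 0.657, exact permutation p = 0.2).

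Of 18 regulators of these genes 1 had an unadjusted p under 0.05 in low-iron against control and 1 in high-iron against control, as lower in both, where 0.763% and 0.811% of all genes did so as lower and 2.92% and 4.78% as higher. Both were KLF15, a transcription factor known to promote amino acid breakdown in fasting and under glucocorticoids. It was named after its values were seen. KLF15 was at 45.1, 39.5 and 50.3 FPKM in the control libraries, at 27.0, 23.5 and 27.0 FPKM in the low-iron libraries and at 22.2, 21.5 and 29.3 FPKM in the high-iron libraries. Every control pig was above every other pig. The log2 fold change was -0.79 ± 0.18 in low-iron (SE, limma p = 0.00128, adjusted p = 0.9998, exact permutation p = 0.1) and -0.89 ± 0.18 in high-iron against control (SE, limma p = 0.000548, adjusted p = 0.767, exact permutation p = 0.1), and the unadjusted p was under 0.05 in 16 of 16 alternatives for each. Both comparisons use the same control libraries. The enzymes had medians of 0.07 and -0.23 in these comparisons.

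HNF4A, the nuclear receptor that maintains hepatocyte expression, was at 58.7, 55.8 and 63.4 FPKM in the high-iron libraries against 63.5, 96.3 and 102 FPKM in the low-iron libraries, apart by a narrow margin. The resulting log2 fold change was -0.53 ± 0.24 (SE, limma p = 0.0468, adjusted p = 0.697, exact permutation p = 0.1). FOXA3 and CEBPB, also hepatic transcription factors, had log2 fold changes of -0.53 and -0.67 in the same comparison (limma adjusted p = 0.674 and 0.697). These 3 of the 18 regulators had an unadjusted p under 0.05 in that comparison, as 3.12% of all genes did as lower and 4.03% as higher.

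Several markers of other liver cells were higher in the high-iron than in the control group at an unadjusted p under 0.05, a side that 4.78% of all genes reached, but none had an adjusted p under 0.05 by limma (lowest 0.885). Of 8 Kupffer cell and macrophage markers, 6 (C1QA, C1QB, CD163, CD68, CSF1R and VSIG4) were among these, with a median log2 fold change of 0.56. Their summed level was 831 to 1060 FPKM in the high-iron libraries, 538 to 757 in the control and 641 to 786 in the low-iron libraries. Of 6 endothelial markers 3 (CDH5, PECAM1 and VWF) were, and the sums in the same order were 135 to 146, 98.3 to 102 and 94.6 to 140 FPKM. Of 7 stellate cell and fibroblast markers 2 (COL1A1 and COL1A2) were, and the sums were 200 to 306, 114 to 208 and 114 to 308 FPKM. Of 8 rows of T and NK cell markers 2 (CD8A and 1 of the 2 rows of GZMA) were, and the sums were 26.9 to 46.4, 16.5 to 25.9 and 17.2 to 23.6 FPKM. That row of GZMA had group means of 1.01 FPKM in high-iron, 0.298 FPKM in control and 0.751 FPKM in low-iron, where it also passed the study's call against control, while the other row had a log2 fold change of 0.26 in high-iron against control. VWF, COL1A1, CD8A and that row of GZMA passed the study's call in high-iron against control, as 1.57% of all genes did. In high-iron against low-iron COL1A1, COL1A2, CD8A and the plasma cell marker JCHAIN passed it as higher (limma adjusted p = 0.615 for each). There 1.54% of all genes passed. Only the Kupffer cell and T and NK cell sums of the high-iron group lay above those of both other groups.

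Hepatocyte markers overlapped between the groups in their sums, most of which was ALB. Their sums were 63000 to 80400 FPKM in the high-iron, 65000 to 90800 in the control and 65200 to 79300 in the low-iron libraries, and the median log2 fold change of their 9 rows in the table was 0.00 in high-iron against control and -0.07 against low-iron. CPS1, the first enzyme of the urea cycle, was the only one with an unadjusted p under 0.05, as lower in both. It was at 331, 449 and 513 FPKM in the high-iron, 780, 843 and 722 in the control and 792, 493 and 640 in the low-iron libraries. High-iron and control libraries did not overlap for CPS1, which held for 1.76% of all genes as lower. In that comparison its log2 fold change was -0.88 ± 0.24 (SE, limma p = 0.0042, adjusted p = 0.885, exact permutation p = 0.1). The sums of B and plasma cell (88.6 to 140, 92.6 to 146 and 109 to 124 FPKM), bile duct cell (6.47 to 8.44, 3.01 to 11.3 and 4.77 to 8.44 FPKM) and erythroid cell markers (351 to 839, 211 to 1450 and 476 to 2450 FPKM) overlapped between the groups in the same order. MZB1, SLC4A1 and AHSP were among those at 0 in some libraries. Most of the B and plasma cell sums was XBP1 (72.3 to 131 FPKM), so they say little of the other markers. Without overlap, JCHAIN was higher in high-iron than in low-iron (8.11% of all genes) and MZB1 higher in high-iron than in control (9.14%). MS4A1 was lower in low-iron than in control without overlap (2.24%). High-iron 2 and low-iron 3, the libraries with the lowest enzyme levels, had stellate cell medians of 0.87 and 0.55, and low-iron 2 and 7, those with the highest, of -0.83 and -0.52, while control 5, with an enzyme level of 0.00, had one of -0.83. The part of these cells in the enzyme values was not tested, and in bulk tissue fewer cells of a type and less RNA per cell cannot be told apart.

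**Figure D4:**
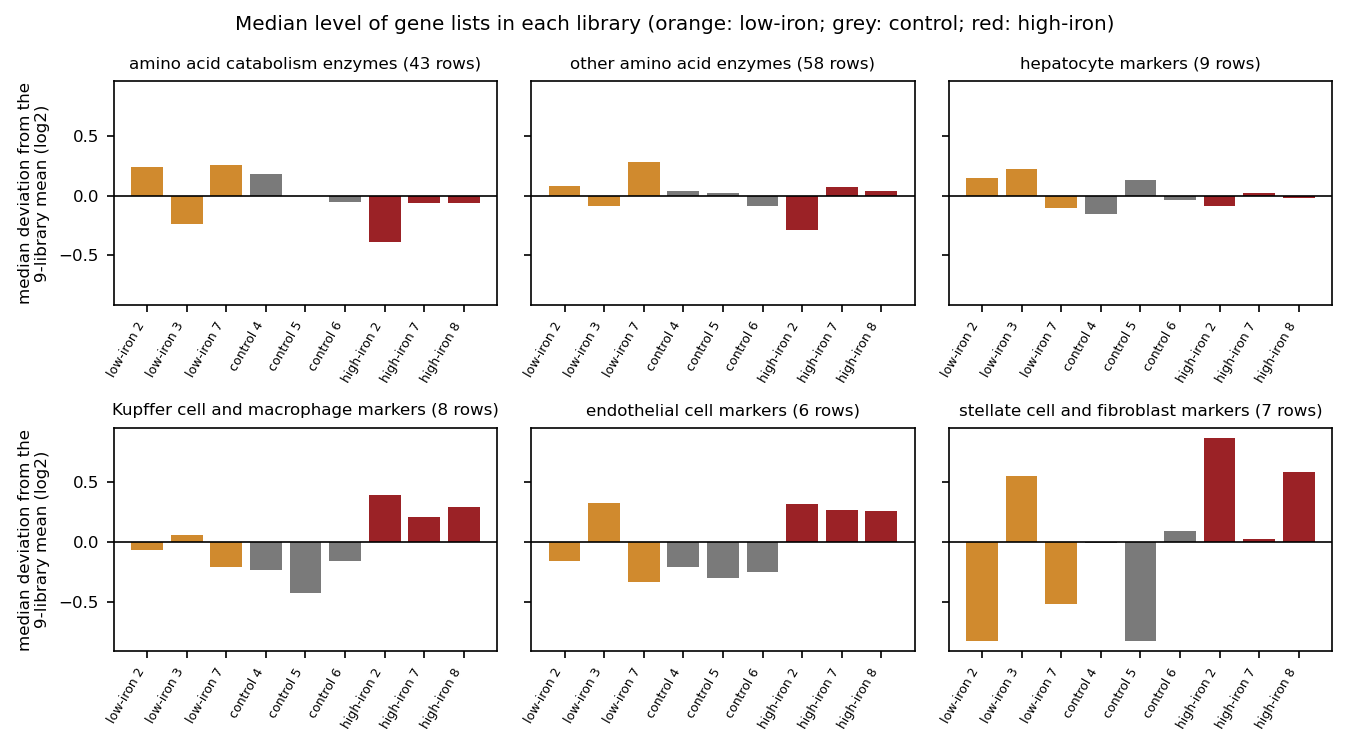
Median deviation from the mean over the 9 libraries (y axis, log2) of 6 gene lists in each library (x axis), with bars coloured by group. The enzymes are lowest in high-iron 2 (-0.39), and the Kupffer cell and endothelial markers are above 0 in all high-iron libraries.

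EIF1AY, a gene of chromosome Y, was above 0 in low-iron 2 and 7, control 4 and 6 and high-iron 7, at 15.0 to 26.5 FPKM, and at 0 in the 4 other libraries. The groups were therefore not alike in it, with 2 libraries above 0 in the low-iron and in the control group and 1 in the high-iron group. It was examined because several enzymes split the libraries along the same line, which was seen in the values first. For 7 of the 43 enzymes (16.3%) all 5 libraries with EIF1AY were above the 4 without it, against 2.77% of all tested genes, and for none were they below (0.977% of all tested genes).

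These were HPD, GSTZ1, GOT1, GCSH, AGXT, AHCY and CTH. AGXT, which detoxifies glyoxylate by transamination in the liver, was at 214 to 277 FPKM (median 219) in the 5 libraries with EIF1AY and at 61.4 to 123 FPKM (median 89.3) in the 4 without it. CTH was at 283 to 409 FPKM against 187 to 259 FPKM, and GOT1 at 178 to 319 FPKM against 96.6 to 177 FPKM. GPT2 was at 174, 181, 203 and 187 FPKM in the low-iron and control libraries with EIF1AY but at 82.6 FPKM in high-iron 7, against 61.6 to 101 FPKM without it. The split is a description of these libraries, with no test.

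With the level of EIF1AY as a covariate in the fit, 1 enzyme (AASS) had an unadjusted p under 0.05 in high-iron against control, with a median of -0.12 over the 43. In high-iron against low-iron 4 enzymes (CBS, CDO1, HGD and KMO) did, with a median of -0.21, and CDO1 still did in low-iron against control. The shares of all tested genes under that limit are not given for the fit with this covariate. Within the libraries with EIF1AY, high-iron 7 was below the mean of low-iron 2 and 7 for 37 of 43 enzymes (median log2 difference -0.26) and below that of control 4 and 6 for 25 (median -0.07). Of all tested genes 38.9% (median 0.11) and 34.6% (median 0.13) were below. Within those without it, high-iron 2 and 8 were below low-iron 3 for 24 of 43 (median -0.07) and below control 5 for 28 (median -0.25). For all tested genes the shares were 53% (median -0.03) and 36.6% (median 0.15), the first near that of the enzymes. Low-iron 3 was below control 5 for 28 of 43 (median -0.15), while low-iron 2 and 7 were below control 4 and 6 for 14 (median 0.19). All tested genes were so in 34.9% (median 0.19) and 48.4% (median 0.01). With 1 or 2 libraries on a side these values have no test.

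**Figure D5:**
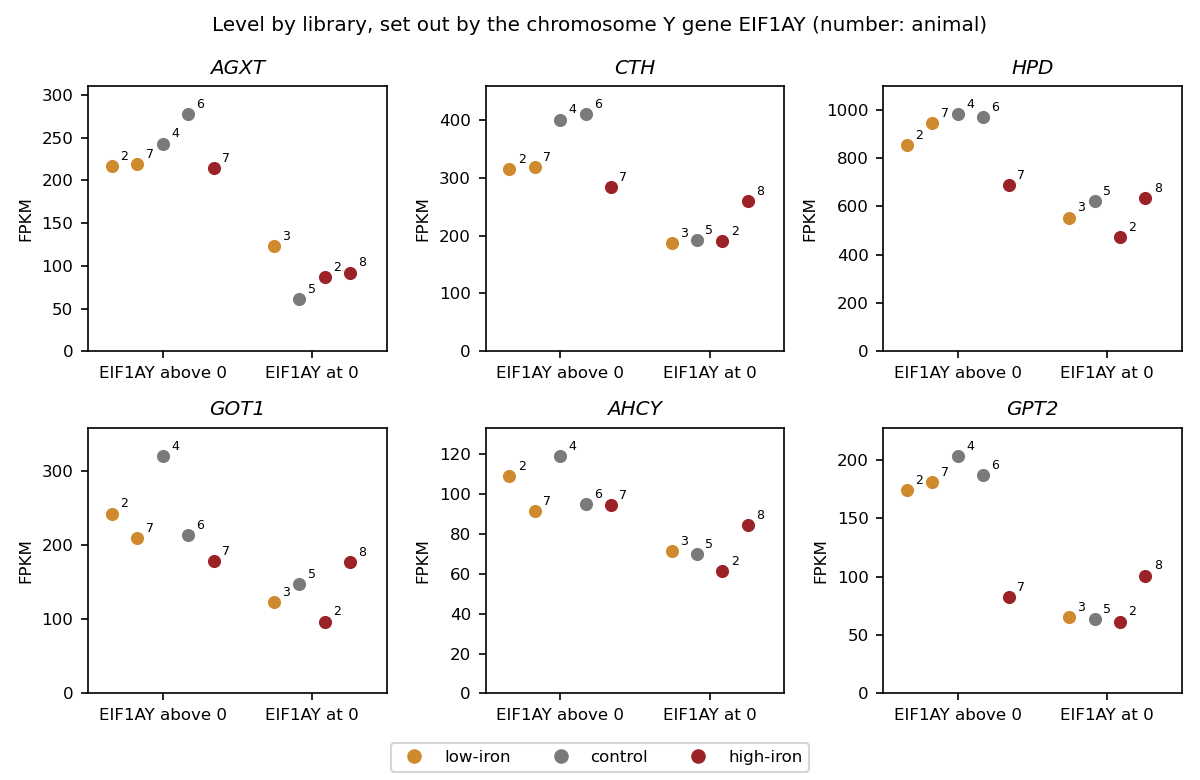
FPKM (y axis, from 0) of AGXT, CTH, HPD, GOT1, AHCY and GPT2 in each library, set out by whether EIF1AY was above 0 (left) or at 0 (right), coloured by group and numbered by pig. For AGXT the left points lie between 214 and 277 and the right points between 61.4 and 123, and for GPT2 high-iron 7 (82.6) lies among the right points.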

How the data were processed

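Liver RNA of 9 pigs, 1 library each, was read from the FPKM values of genes that the authors deposited in 1 table. Per the submitters' processing notes, reads were aligned with HISAT2 to Sscrofa11.1 and assembled with StringTie, with settings not given in the sources used here. The authors screened genes with DESeq2 on read counts, a test that FPKM values do not allow. The table names genes by serial number, without a key. The numbers were matched to the gene lines of RefSeq annotation release 106 of Sscrofa11.1, where all 20660 numbered genes fell on protein-coding genes (15031 with the numbers moved by 1). The other 5258 genes of the table are new genes with no name. TF and GZMA stand on more than 1 row.

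Values were tested as log2(FPKM + 0.1) over 12584 genes with a mean of at least 0.5 FPKM, with limma 3.58.1 (R 4.3.3), fitted once over all 9 libraries (6 residual degrees of freedom), with a mean-variance trend and Benjamini-Hochberg adjustment over all tested genes. Fold changes are on that scale and understate those of low genes. The study's call is a fold change of at least 2 with an unadjusted p under 0.05. Single genes were also compared by two-sided exact permutation tests (scipy 1.17.1 under Python 3.11.15, with numpy 2.4.6, pandas 2.3.3 and matplotlib 3.10.9). The scripts were tested on simulated data. The depth behind a value is not known. From the values of low single-exon genes (3 to 7 a library) relative depth lay between 1.00 and 1.33. Groups came from the titles of the libraries, and each pig counts once. The promoters are those of RefSeq for Sscrofa11.1.

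Values are given for enzymes past the study's call, the 5 with the smallest p in each comparison, those with iron or haem and the 5 most abundant, and of the 58 other enzymes for those past the call or the 3 with the smallest p. Further names follow from a count of few genes or were chosen after their values were seen, as were those shown by EIF1AY. The enzymes and all lists were chosen with earlier results of these data known. The alternatives were other pseudocounts and filters, TPM, median-of-ratios and quantile scaling, a fit of 2 groups, array quality weights, EIF1AY as a covariate, a replicate block and leaving out each library. The values within libraries with and without EIF1AY were added after seeing the data. Some genes of the lists are not reported here by name.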

Additional observations from a re-analysis of the deposited data

How the results depend on the processing

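No enzyme reached an adjusted p under 0.05 by limma in any alternative. Alternatives were followed for the 5 enzymes with the smallest p in each comparison, picked from these same data. Of their 245 alternative values none changed sign and 197 stayed on their side of an unadjusted p of 0.05. The p came under it for 16 and was no longer under it for 32. The alternatives reuse most of the same libraries, so a kept sign is not independent support. Other counts depended on the processing, and the cause was not tested. For the alternatives the shares of all tested genes under an unadjusted p of 0.05 or past the study's call are not given. The counts of enzymes below therefore do not show a larger or smaller difference. In low-iron against control the number of enzymes with an unadjusted p under 0.05 (1 as reported) was 0 with no filter on low values, median-of-ratios scaling, quantile normalization or a fit of 2 groups, and 3 with array quality weights, 1 of them past the study's call. Leaving out 1 library gave 0 to 1 such enzymes, 0 to 1 past the call (SDS without low-iron 7 and CDO1 without control 5), 3 to 29 below 0 (10 without control 4) and a median of -0.04 to 0.21. In high-iron against control the number under 0.05 (2 as reported) was 7 with median-of-ratios scaling, 4 with quantile normalization, 4 in a fit of 2 groups, 6 with array quality weights and 1 with EIF1AY as a covariate, and the first and the third of these had 1 enzyme past the call. Leaving out 1 library gave 1 to 9, 1 to 3 past the call, 29 to 39 below 0 and a median of -0.27 to -0.05. In high-iron against low-iron (6 under 0.05 and 1 past the call as reported) the number past the call was 0 after rescaling to TPM or quantile normalization, 3 with median-of-ratios scaling, 4 with array quality weights and 2 with EIF1AY as a covariate. Leaving out 1 library gave 2 to 11 under 0.05, 0 to 3 past the call (0 without high-iron 8), 31 to 40 below 0 and a median of -0.45 to -0.19. Within the libraries without EIF1AY, which were set apart after seeing the data, the medians were -0.15 in low-iron against control and -0.07 in high-iron against low-iron. Over all tested genes they were 0.19 and -0.03.

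Low-iron and high-iron pigs share the numbers 2 and 7. Deviations of same-numbered libraries from their group means had correlations of only 0.02 and 0.02 across genes. The labels do not say what the number stands for, and these correlations cannot settle it. In a fit of high-iron against low-iron with this replicate block, low-iron 3 and high-iron 8 have no partner. The contrast then rests on the pigs numbered 2 and 7, with little left to estimate the spread. This fit had 13 enzymes under an unadjusted p of 0.05 and 6 past the call (AASS, GPT, GPT2, HGD, KMO and OAT), CDO1 not among the latter. The median log2 fold change was -0.45 over the enzymes and 0.02 over all tested genes. The shares of all tested genes past these limits are not given for this fit. Its counts therefore do not show a larger difference.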
